A study of Xenopus tropicalis with 26 samples.

Results

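Whole *Xenopus tropicalis* embryos kept in high K+ were set against control embryos of the same age at 3.5, 4 and 4.5 h after stage 8, during gastrulation. The comparison rested on 6 of the 26 samples of the time course, chosen by treatment and time alone: 3 high K+ samples and 3 control samples, 1 of each per time point. The high K+ embryos were held in a solution of 10 mM KCl, and the control embryos in the usual frog embryo medium, a dilute modified Ringer's solution. Both sets came from 1 clutch of synchronized embryos made by *in vitro* fertilization and were kept at the same temperature. Each sample pooled the polyA RNA of 10 embryos, and samples were taken every 30 min from stage 8. Each condition had 1 time course, so the 3 time points served as repeats of each other, and the p-values below measure only the spread between time points, not between clutches. In pooled whole embryos, fewer cells of a type and less RNA per cell cannot be told apart.

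The outward flow of potassium through open channels keeps the inside of most animal cells electrically negative. Raising external K+ weakens that flow and depolarizes the membrane, which opens voltage-gated calcium channels. The window examined here is one in which the frog embryo forms ectoderm, mesoderm and endoderm, shuts down its pluripotency factors and moves cells inward through the blastopore. The question the comparison addresses is which transcripts a depolarized embryo carries at altered levels at that time.

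The deposited table lists 34192 genes beside 92 synthetic spike-in RNAs, and 15019 genes passed the filter on low values and were tested. Values are abundances that the authors corrected for base composition in each condition separately, on a scale derived from transcript abundances normalized for transcript length. Read depth is not given by such values, so no counting interval could be attached to them. A bias left by the separate corrections cannot be told apart from high K+ here. Between 14803 and 15244 genes lay above an abundance of 0.4 in the high K+ samples and between 15012 and 15548 in the control samples. A single gene without a symbol took 47.1 to 48.7% of all abundance in the high K+ samples and 63.6 to 69.2% in the control samples, and totals were therefore not used for scaling. The embryos carried transcripts of all germ layers in both conditions. The mesodermal T-box gene *t* had 510, 353 and 335 in high K+ embryos at 3.5, 4 and 4.5 h, against 302, 280 and 412 in control embryos. The endodermal homeobox gene *mixer* had 739, 352 and 288 in high K+ embryos, against 685, 430 and 438 in control embryos. The neural gene *sox2* had 514, 486 and 465 in high K+ embryos, against 670.1, 697 and 792 in control embryos.

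Among the genes with a symbol that differed most between the conditions were *irg1*, *socs3*, *ier3* and *junb*, which lay far lower in high K+ embryos. *irg1*, *ier3* and *junb* rose in both conditions, and in control embryos they fell back after 4.5 h. *socs3* rose in control embryos and stayed low in high K+ embryos. Of the 15019 genes, 164 were lower and 87 were higher in high K+ embryos at an adjusted p under 0.05 (limma, Benjamini-Hochberg), which is 1.09% and 0.579% of the genes tested. At an unadjusted p under 0.05 there were 2798 genes, 900 higher (5.99%) and 1898 lower (12.6%), and the unadjusted counts of the lists below are to be read against these shares. All 251 called genes differed in the same direction at all 3 time points. The lowered genes had a median log2 difference of -1.11, and 108 of them lay beyond 1 and 34 beyond 2 on the log2 scale. The raised genes had a median log2 difference of 1.06, and 51 lay beyond 1 and 7 beyond 2. In 137 of the 164 lowered genes all 3 high K+ values lay below all 3 control values, an arrangement found in 10.6% of all tested genes. In 82 of the 87 raised genes all 3 high K+ values lay above, as in 4.95% of all tested genes.

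**Figure D1:**
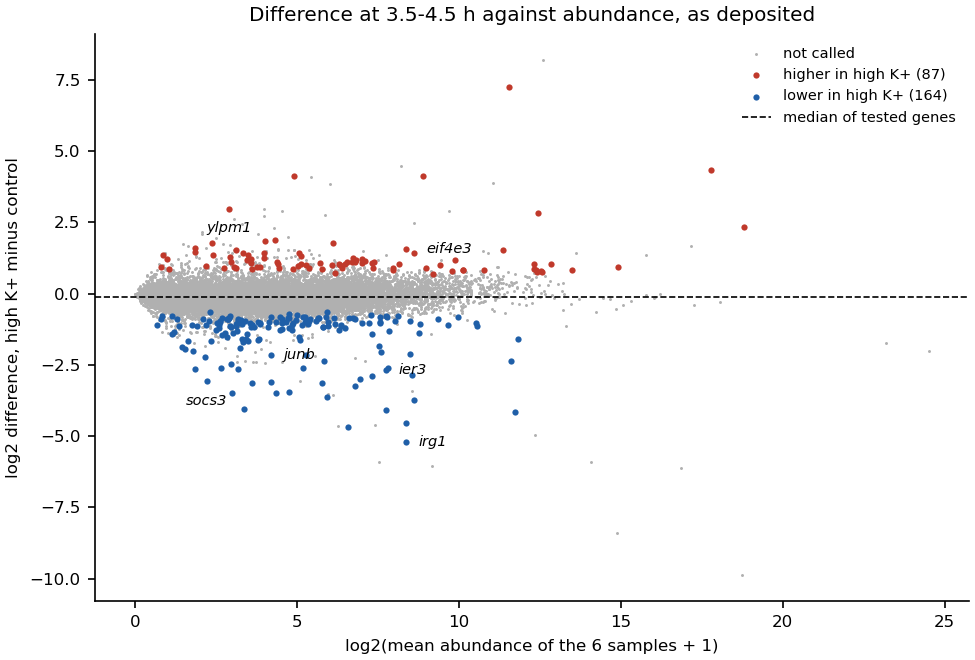
Mean log2 difference between high K+ and control embryos at 3.5 to 4.5 h (vertical axis) against the log2 of the mean abundance over the 6 samples plus 1 (horizontal axis), 1 point per tested gene. The 87 genes called higher are red, the 164 called lower are blue, and the dashed line marks the median of all tested genes at -0.10. The called genes spread over the whole range of abundance, and *irg1* and *socs3* lie among the lowest points.

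These counts depended on how the samples were brought to a common scale. The median log2 difference over all tested genes was 0.09 at 3.5 h, -0.01 at 4 h and -0.38 at 4.5 h, and the share of genes higher in high K+ embryos was 56.9%, 48.6% and 20.9% at those times. With the median ratio of high K+ to control set to 1 at each time point, 689 genes were higher (4.59%) and 451 were lower (3.0%). That scaling turned the split round, since most calls were then higher. When samples were scaled to their spike-in RNAs, 22 genes were higher (0.146%) and 41 were lower (0.273%). Of the genes called as deposited, 87 of 87 raised and 161 of 164 lowered genes kept their call with the median ratio set to 1, and all 22 and 41 called with the spike-in scaling were among them. Leaving out the 3.5, 4 or 4.5 h pair left 12, 20 and 36 genes higher and 69, 58 and 42 lower. A fit that did not pair the samples by time point gave 28 higher and 83 lower. Against control samples taken 30 min earlier, 37 of the 87 raised and 58 of the 164 lowered genes kept their call.

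Among genes with a symbol, *irg1* was lowered most. It encodes aconitate decarboxylase, which makes itaconate and is known from activated macrophages of mammals. It had 4.32, 9.00 and 41.7 in high K+ embryos at 3.5, 4 and 4.5 h, against 163, 544 and 1229.7 in control embryos. The groups did not overlap, and the highest high K+ value lay far below the lowest control value. The log2 difference was -5.19 ± 0.44 (SE), with an adjusted p of 3.49e-05. *irg1* stood above 10 from 3 h in control embryos and from 4.5 h in high K+ embryos. At 6 h it had reached 634 in high K+ embryos, and in control embryos it had fallen from 1229.7 at 4.5 h to 660.0. Both conditions thus lay at a similar level in the last pair of samples. The mean log2 difference at 5 to 6 h was still -1.29. The difference at 3.5 to 4.5 h was more negative than that at 2 to 3 h by 4.28 on the log2 scale, with an adjusted p of 0.0146. Another gene deposited as *irg1* stayed under 1 in all 6 samples and was not called.

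*socs3*, a feedback inhibitor of JAK-STAT signaling, was nearly silent in high K+ embryos. It had 0.0883 at 3.5 h, 0.0512 at 4 h and was listed at 0 at 4.5 h, against 7.60, 24.1 and 23.7 in control embryos. The log2 difference was -4.06 ± 0.36 (SE), with an adjusted p of 4.53e-05. This gene passed the filter on low values through the control samples alone, where it was high. Its call is therefore not independent of that filter. High K+ embryos reached 3.35 by 6 h, their highest value, and never passed the lowest control value of the window. A second gene deposited as *socs3* had 59.0, 62.0 and 49.3 in high K+ embryos, against 61.6, 100.2 and 139 in control embryos, and was not called (adjusted p = 0.13). Reads that match both copies could have been divided between them by the authors' estimation.

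*ier3*, an early response gene of cell survival and growth factor signaling, had 37.7, 56.01 and 81.7 in high K+ embryos, against 271, 373 and 475 in control embryos. The log2 difference was -2.68 ± 0.32 (SE), with an adjusted p of 0.000481. *junb*, an AP-1 transcription factor, had 3.33, 5.23 and 7.96 in high K+ embryos, against 14.2, 32.6 and 41.1 in control embryos (log2 difference -2.16, adjusted p = 0.00107). Both genes climbed at all 3 time points in both conditions, on a lower line in high K+. *socs1*, another JAK-STAT inhibitor, had 3.22, 2.71 and 3.04 in high K+ embryos, against 10.5, 17.6 and 14.3 in control embryos (log2 difference -1.90, adjusted p = 0.0022). It was present from stage 8 in both conditions, and its lowest value of the course in high K+ embryos fell in this window. *irg1*, the called *socs3*, *ier3* and *socs1* were called under all 14 alternative settings tried, and *junb* under 13, the exception being control samples 30 min earlier (log2 difference -1.05, adjusted p = 0.109).

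**Figure D2:**
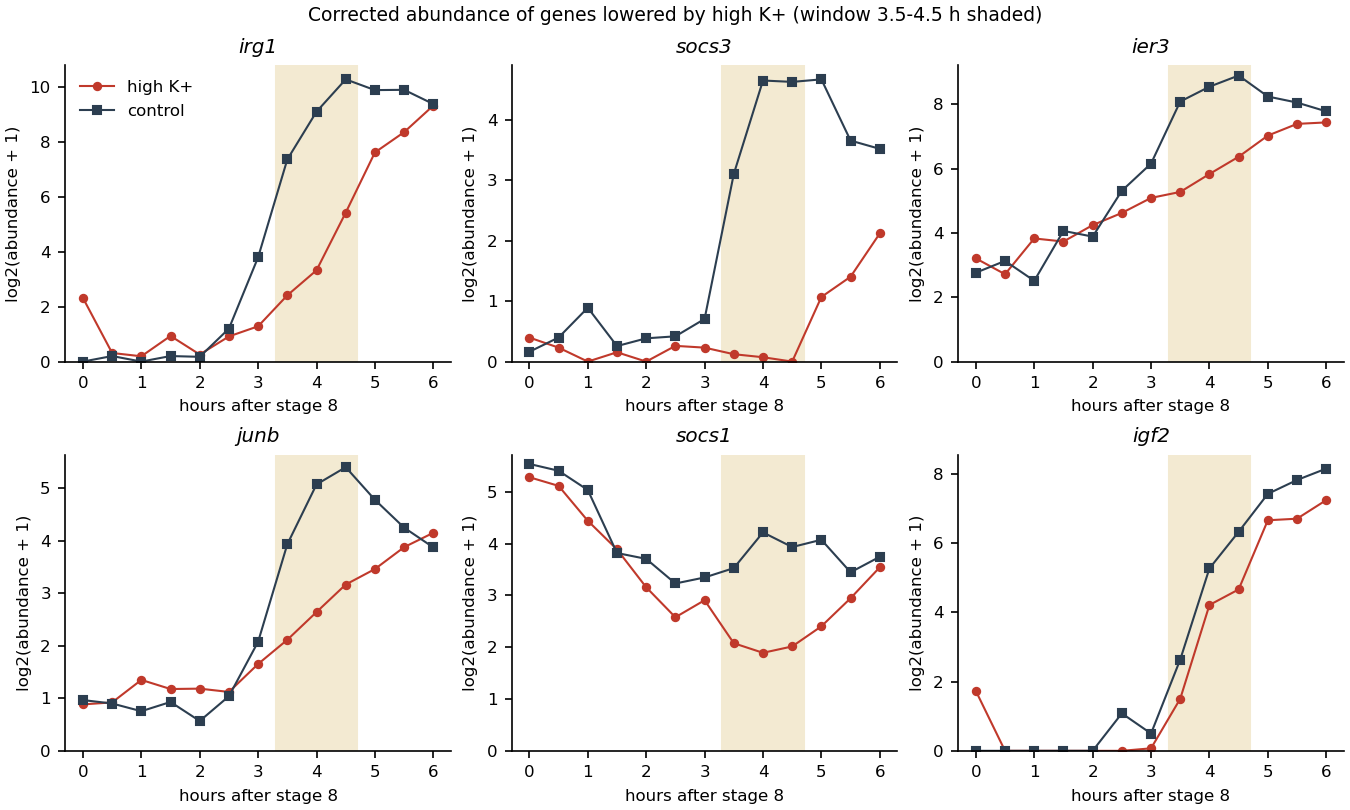
Abundance of 6 genes over the whole course, as log2(abundance + 1) against hours after stage 8, with high K+ in red circles and control in dark squares, 1 sample per point. In the shaded window from 3.5 to 4.5 h every high K+ point lies below the control point of the same time. *irg1*, *ier3* and *junb* converge toward the control level by 6 h, after the control values fell from their peak at 4.5 h. *socs3* reaches 3.35 at most in high K+ embryos.

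A stretch of neighboring genes that holds a gene with the older name *irg1* was lowered in high K+ embryos. Of 76 called genes deposited only with an NCBI gene number, 45 are in the RefSeq table of the assembly UCB_Xtro_10.0, and 11 of these carry another name there. In that assembly 11 protein-coding genes lie between *atp7a* and *zbtb33*, and 1 of them, *acod1lb*, has *irg1* as an older name. Because 2 deposited genes share that symbol, the symbol alone does not say which of them lies there. Of the other 10 genes, 9 were matched by gene number and tested, and 8 of the 9 were lower in high K+ embryos, under both other scalings as well. This stretch was picked out after the values were seen, so the count is a description, beside 1.09% of all tested genes called lower.

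*acod1la*, the second aconitate decarboxylase-like gene of the stretch, had 1.37, 3.22 and 13.4 in high K+ embryos, against 45.1, 142 and 356 in control embryos (log2 difference -4.66, adjusted p = 5.18e-05). *phyhdla.2* had 4.84, 17.1 and 65.2 in high K+ embryos, against 115, 489 and 591 in control embryos (log2 difference -4.08, adjusted p = 0.000178). *satpa* had 11.8, 22.3 and 51.2 in high K+ embryos, against 106, 228 and 313 in control embryos (log2 difference -2.98, adjusted p = 0.000344). In these 3 genes, as in *irg1*, abundance climbed at every step in both conditions and the groups did not overlap. *phyhdlb*, *gatd3ala*, *phyhdla.1*, *phyhdla.3* and *gatd3alb.1* were lower by log2 differences of -3.50, -2.65, -3.44, -3.74 and -1.69. Of these, *gatd3ala* passed the filter on low values through the control samples alone. The remaining tested gene, *gatd3alb.2*, had 0.738, 1.48 and 0.591 in high K+ embryos, against 1.77, 2.63 and 1.05 in control embryos, and was not called (adjusted p = 0.261). Several of these genes are copies of each other, and reads shared between copies could not be separated here.

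The genes on both sides of the stretch behaved otherwise. Of the 5 nearest protein-coding genes on each side 8 were tested, none was called, and their log2 differences ran between -0.46 and 0.20. *atp7a*, a copper pump, had 12.5, 5.76 and 4.30 in high K+ embryos, against 9.02, 7.72 and 7.05 in control embryos. *zbtb33*, a zinc finger gene, had 15.0, 11.2 and 8.50 in high K+ embryos, against 12.1, 10.6 and 15.1 in control embryos. Against control embryos taken 30 min earlier, 5 of the 8 lowered genes were still called lower, and *irg1* still differed by -3.03 (adjusted p = 0.0193). Over the whole annotation, 12528 tested genes could be placed in order. Of 103 placed genes called lower, 13 lay next to another gene called lower, and 8 of those 13 were the genes described above. Of 39 placed genes called higher, 0 lay next to another called higher.

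**Figure D3:**
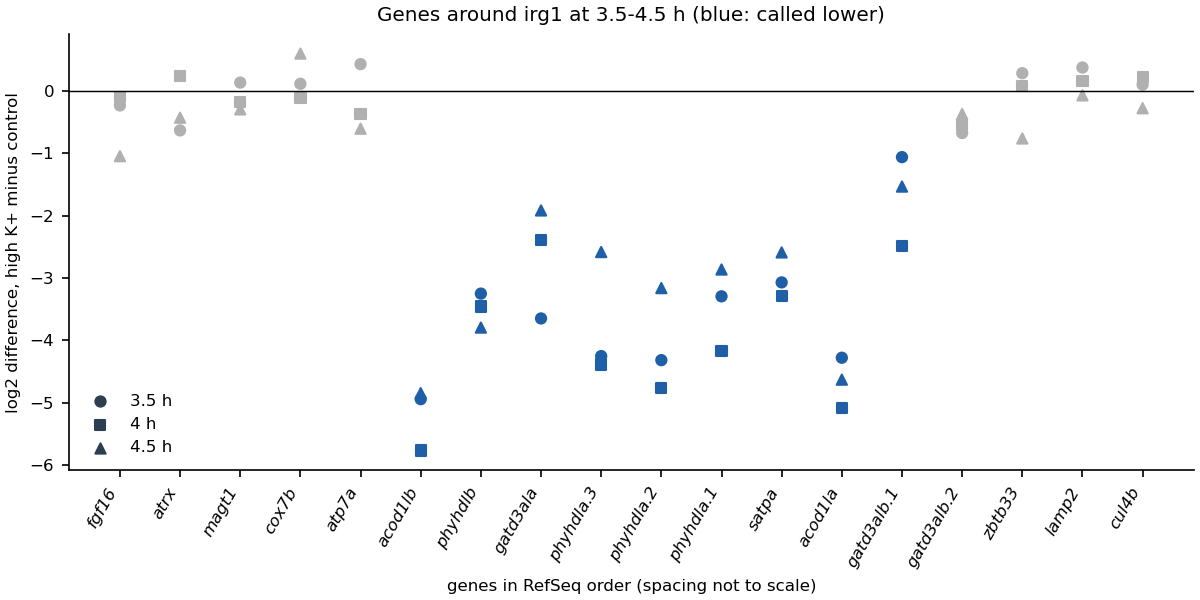
Log2 difference between high K+ and control embryos at 3.5 h (circles), 4 h (squares) and 4.5 h (triangles) for the tested genes between *fgf16* and *cul4b*, in RefSeq order and not to scale. Genes called lower are blue, and *acod1lb* shows the called gene deposited as *irg1*. The other gene deposited as *irg1* was not called (log2 difference -0.19) and is not drawn. Which of them lies at *acod1lb* is not known. The points from *acod1lb* to *gatd3alb.1* lie between about -1 and -6. The last gene of the stretch, *gatd3alb.2*, was not called and has a mean log2 difference of -0.53. The genes up to *atp7a* and from *zbtb33* on have mean log2 differences between -0.46 and 0.20.

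The other strongly lowered genes with a symbol had smaller differences. *qprt*, which makes a precursor of NAD, had 6.92, 5.42 and 5.01 in high K+ embryos, against 15.1, 24.1 and 21.7 in control embryos (log2 difference -1.63, adjusted p = 0.0168). *gps2*, a subunit of a corepressor complex, had 6.75, 5.91 and 5.18 in high K+ embryos, against 15.0, 19.6 and 26.6 in control embryos (log2 difference -1.59, adjusted p = 0.0148). Neither gene overlapped between the conditions. *igf2*, a growth factor, had 1.84, 17.5 and 24.3 in high K+ embryos, against 5.22, 37.5 and 79.1 in control embryos (log2 difference -1.28, adjusted p = 0.0105). *rab3d*, a GTPase of secretory vesicles, had 3.40, 9.84 and 19.0 in high K+ embryos, against 6.24, 33.2 and 54.8 in control embryos (log2 difference -1.28, adjusted p = 0.0105). *igf2* and *rab3d* rose so steeply with time in both conditions that the groups overlapped, and against control embryos 30 min younger their differences became 0.66 and 0.39. *dedd*, *ubxn11* and the uncharacterized *c6h8orf59* were lower by log2 differences of -1.20, -1.17 and -1.25.

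Lowered genes were often genes that control embryos were turning on. In control embryos, 70 of the 164 lowered genes (42.7%) rose by more than 1 on the log2 scale between 2 to 3 h and 5 to 6 h, against 10.1% of all tested genes. A fall of that size was seen in 26 of them (15.9%), against 38.1% of all tested genes. Of the 87 raised genes, 8 (9.20%) rose and 20 (22.99%) fell in control embryos over the same time. The control samples behind these figures are not those of the 3.5 to 4.5 h comparison. They did enter the fit that set the spread behind the calls. The filter also kept genes through control samples alone. Rising in control embryos and being called lower are therefore not independent.

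The list labeled immediate early genes had the most lowered members. Such genes are defined by a response to signals without new protein synthesis, and whether each member responds so was not tested. Of 30 tested members 6 were lower and 0 higher (limma), and 9 and 0 with the median ratio set to 1. The list holds *irg1* and *socs3*, and it was drawn up with their low values known, so its count is not independent evidence. Its median log2 difference was -0.54, against -0.10 for all tested genes, and 24 of 30 members lay below the median of all genes. Beside *irg1*, *socs3*, *ier3* and *junb*, the called members were *atf3* and *ier5l*, which fall outside the naming rule and are given because they complete the count. *atf3*, a stress-responsive transcription factor, had 2.21, 1.64 and 1.77 in high K+ embryos, against 3.35, 5.66 and 7.04 in control embryos (log2 difference -1.10, adjusted p = 0.0456). *ier5l* had 315, 286 and 249 in high K+ embryos, against 566, 532 and 708 in control embryos (log2 difference -1.08, adjusted p = 0.0128). Against control samples 30 min earlier, *atf3* was no longer called (log2 difference -0.91, adjusted p = 0.0765). The calcium-responsive members *fos* and *egr1* were not called. *fos* had 9.99, 7.31 and 8.65 in high K+ embryos, against 11.0, 15.6 and 14.6 in control embryos. *egr1* had 2.40, 2.47 and 1.88 in high K+ embryos, against 2.39, 2.40 and 2.88 in control embryos.

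Cytokine and immune signaling genes were grouped in 2 lists drawn up after the values of *socs3* and *socs1* were seen. Of 35 tested JAK-STAT genes 3 were lower and 0 higher: *socs3*, *socs1* and *cish*, all of them induced inhibitors of the pathway. Other *socs* genes, the second *socs3* and *socs2* among them, were not called, and the kinase gene *pim1* differed by 0.08. The median of the list was -0.26, with 12 members above 0 and 23 below. At an unadjusted p under 0.05 (limma), 1 was higher and 7 were lower. *cish* had 0.297, 0.775 and 1.82 in high K+ embryos, against 0.755, 3.22 and 7.56 in control embryos (log2 difference -1.10, adjusted p = 0.0363). Its groups overlapped, and against control embryos 30 min younger the difference was -0.17 (adjusted p = 0.675). The kinase *jak2* had 8.55, 4.80 and 5.42 in high K+ embryos, against 9.31, 4.83 and 5.07 in control embryos, a log2 difference of -0.01 that was not called. Of 35 tested NF-kB and complement genes 3 were lower and 0 higher: *c9*, *c3* and *nfkbia*. The median of this list was -0.15, against -0.10 for all tested genes, and 15 of 35 lay above the median of all genes. At an unadjusted p under 0.05 (limma), 1 was higher and 7 were lower. The complement gene *cfd* was higher by a log2 difference of 0.72 at all 3 time points together, without a call. The complement gene *c9* had 32.6, 53.1 and 62.0 in high K+ embryos, against 70.6, 108 and 157 in control embryos (log2 difference -1.14, adjusted p = 0.0113). *nfkbia*, the NF-kB inhibitor that NF-kB itself induces, had 24.2, 21.6 and 28.6 in high K+ embryos, against 35.6, 36.8 and 66.4 in control embryos (log2 difference -0.82, adjusted p = 0.0387). Against control embryos 30 min younger none of these 3 was called, the differences of *c9* and *nfkbia* were -0.35 and -0.27, and that of *c3*, whose groups overlapped, turned to 0.62. With the spike-in scaling *socs3* and *socs1* remained called, and *cish*, *c9*, *c3* and *nfkbia* were not.

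Few germ layer genes passed the test. Of 26 mesoderm factors 2 were lower and 0 higher. *mespa*, a factor of the presomitic mesoderm, had 5.45, 6.81 and 4.03 in high K+ embryos, against 10.1, 12.3 and 14.7 in control embryos (log2 difference -1.06, adjusted p = 0.0454). *cdx4*, a posterior homeobox gene, had 28.0, 49.7 and 46.7 in high K+ embryos, against 71.0, 84.7 and 88.1 in control embryos (log2 difference -0.99, adjusted p = 0.0438), and was the 1 called gene of 21 *hox*, *cdx* and *meis* genes. Of 25 BMP ligands and targets, *id3*, a direct BMP target, was the 1 called, lower at 1103, 1139.7 and 658 in high K+ embryos, against 2404, 1829 and 1629 in control embryos (log2 difference -1.04, adjusted p = 0.025). Of 24 FGF genes the 1 called was *ier3*. These calls lost their significance with the spike-in scaling and against control embryos 30 min younger, apart from *ier3*. Against those younger control embryos the median of the mesoderm list turned to 0.41 and that of the *hox*, *cdx* and *meis* list to 0.35.

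Neural plate factors lay low as a list although 1 of 30 was called. The median log2 difference of the 30 was -0.38, against -0.10 for all genes, 29 of 30 lay below 0, and 25 of 30 lay below the median of all genes. Against control embryos 30 min younger the list's median was 0.03. The called gene *six3*, a factor of the anterior neural plate, had 0.936, 1.57 and 4.39 in high K+ embryos, against 1.39, 4.63 and 16.0 in control embryos (log2 difference -1.03, adjusted p = 0.0438). Its groups overlapped, since both rose with time, and against control embryos 30 min younger the difference was 0.13. For *sox2*, whose values are given above, the groups did not overlap, but the log2 difference of -0.56 was not called (adjusted p = 0.068).

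The genes that the study stained or depleted gave no call at these 3 time points. By its own test over the whole course, the paper placed *pou5f3.3* and *ventx1.2* among genes activated in high K+. Its stainings of both genes were scored in the animal pole, while the values here are of whole embryos. *pou5f3.3*, a frog counterpart of the pluripotency factor Oct4, had 197, 85.7 and 101 in high K+ embryos, against 136, 64.7 and 67.8 in control embryos, a log2 difference of 0.50 ± 0.20 (SE) with an adjusted p of 0.195. It was higher in high K+ at all 3 time points, but its decline over time was larger than that difference, and the groups overlapped. Against control embryos 30 min younger the difference was -0.12. *ventx1.2*, a Nanog-like homeobox gene, had 412, 362 and 334 in high K+ embryos, against 307, 322 and 464 in control embryos (log2 difference 0.04). It was higher in high K+ at 3.5 and 4 h and lower at 4.5 h. *myf5*, a muscle determination gene, had 488, 548 and 586 in high K+ embryos, against 484, 639 and 897 in control embryos (log2 difference -0.27). The log2 differences of *t*, the organizer gene *gsc*, *mixer* and *trim33* were 0.26, -0.38, -0.26 and -0.24. The calcium channel genes *cacna1c* and *cacna1g* lay under 3 in all 6 samples of this window, with log2 differences of 0.00 and -0.14, and *kcnh6* did not pass the filter. Both channel genes were higher earlier in the course, at up to 8.02 and 8.11 in high K+ embryos at 1 h.

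In the lists of pluripotency, mTOR and calcium signaling genes no member was called in this window. The paper's test over the whole course reports mTOR pathway and pluripotency genes among those activated in high K+. Among 25 pluripotency factors 0 were called, 1 was higher and 5 were lower at an unadjusted p under 0.05, and the median log2 difference was -0.17. *ventx3.2* had 64.5, 70.8 and 74.8 in high K+ embryos, against 96.9, 100.4 and 127 in control embryos (log2 difference -0.61, adjusted p = 0.129). The 19 brakes on mTOR signaling gave 0 calls, with 1 higher and 3 lower at an unadjusted p under 0.05. In the list of mTOR core and activators, *slc38a9* and *rps6* had the largest differences among 37 members. Of these 37, 0 were called and 1 was higher and 2 were lower unadjusted. *slc38a9*, a lysosomal arginine sensor, had 13.5, 9.22 and 8.04 in high K+ embryos, against 23.5, 14.3 and 21.8 in control embryos (log2 difference -0.89, adjusted p = 0.16). *rps6*, also in the list of cytosolic ribosomal proteins, went the other way (log2 difference 0.75, adjusted p = 0.127 by limma). It had 1868, 1854 and 2531 in high K+ embryos, against 964, 2067 and 918 in control embryos. Among 34 calcium signaling genes 0 were called, and 2 were higher and 2 lower unadjusted. *rcan1*, a calcineurin inhibitor induced by calcineurin activity, had 151, 107 and 187 in high K+ embryos, against 62.5, 76.2 and 109 in control embryos (log2 difference 0.84, adjusted p = 0.0611). With the median ratio set to 1, *rcan1* passed the threshold (adjusted p = 0.017). With the spike-in scaling it did not (adjusted p = 0.174), and it was called under 3 of 14 alternatives. In the other direction, *creb1* had 36.8, 38.7 and 34.1 in high K+ embryos, against 77.1, 52.6 and 58.4 in control embryos (log2 difference -0.75, adjusted p = 0.149).

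The remaining developmental lists were likewise without a call by limma, with counts at an unadjusted p under 0.05 as follows. Nodal signaling had 0 higher and 2 lower of 23, endoderm 1 and 1 of 17, organizer genes 1 and 2 of 20, and the Wnt pathway 2 and 2 of 29. Epidermal ectoderm had 0 higher and 6 lower of 30, the Notch pathway 2 and 2 of 23, and retinoic acid 1 and 3 of 19. *nodal*, the mesendoderm inducer, is carried by 2 deposited genes, and the one with the larger difference had 6.33, 5.92 and 6.81 in high K+ embryos, against 12.8, 11.0 and 8.90 in control embryos (log2 difference -0.68, adjusted p = 0.0944). *vegt*, a T-box gene of the endoderm list, had 849.7, 503 and 474 in high K+ embryos, against 381, 371 and 299.7 in control embryos (log2 difference 0.75, adjusted p = 0.0957). In control embryos it had risen from 186 at 0 h to 485 at 3 h. *grhl3*, an epidermal factor, had 41.9, 66.6 and 54.6 in high K+ embryos, against 131, 78.4 and 94.4 in control embryos (log2 difference -0.88, adjusted p = 0.133). The groups of these 3 genes did not overlap, yet none passed the adjusted threshold.

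Of the lists, the spliceosomal *snrp* and *srsf* genes had the most raised members. Among these 22 genes 3 were higher and 0 lower, 11 were higher with the median ratio set to 1, and 0 with the spike-in scaling. The median log2 difference of the list was 0.42, and 21 of 22 lay above the median of all genes. *srsf1*, a splicing regulator, had 8113, 6035 and 6488 in high K+ embryos, against 3180.4, 4159.9 and 4236 in control embryos (log2 difference 0.83, adjusted p = 0.0433). *srsf4* had 7286, 6568 and 5939 in high K+ embryos, against 3361, 3164 and 4467 in control embryos (log2 difference 0.86, adjusted p = 0.049). *srsf7* had 9203, 6428 and 4873 in high K+ embryos, against 4799, 4978 and 2586 in control embryos, and its groups overlapped (log2 difference 0.74, adjusted p = 0.0454). The 1 member below the median of all genes, *srsf11*, had 193, 170.3 and 193 in high K+ embryos, against 312, 222 and 270.1 in control embryos, and was not called. The called one of 2 genes deposited as *sart3*, which helps recycle spliceosomal particles, had 101, 101 and 116 in high K+ embryos, against 51.2, 52.0 and 53.8 in control embryos (log2 difference 1.00, adjusted p = 0.0391).

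Among the other raised genes, *eif4e3*, a cap-binding protein, had 868, 407 and 461 in high K+ embryos, against 189, 166 and 260.1 in control embryos (log2 difference 1.44 ± 0.25 SE, adjusted p = 0.0125). *glo1*, which detoxifies methylglyoxal, had 564, 467 and 333 in high K+ embryos, against 230.0, 318 and 45.2 in control embryos (log2 difference 1.57 ± 0.33 SE, adjusted p = 0.0331). Its low control value at 4.5 h carried much of that difference. *gpx4*, which reduces lipid hydroperoxides, had 1028, 858 and 803 in high K+ embryos, against 466, 617 and 316 in control embryos (log2 difference 0.99, adjusted p = 0.0208). *eif4e3*, *glo1* and *gpx4* were the raised genes named here that stayed called with the spike-in scaling. *ylpm1* had 20.2, 26.5 and 22.2 in high K+ embryos, against 15.7, 2.21 and 4.37 in control embryos (log2 difference 1.85, adjusted p = 0.0426), so that its size rested on the 2 later control samples. *unc13b*, *fam213b* and *gnb4* were higher by log2 differences of 1.53, 1.16 and 1.11. *h2afz*, which encodes the histone variant H2A.Z, *exosc1* of the RNA exosome, *ech1* of fatty acid oxidation and the cold-inducible *cirbp* were higher by 1.05, 1.03, 0.98 and 0.92. Each of these differences, and that of *gpx4*, was smallest at 4 h, and each control value fell from 4 to 4.5 h. *h2afz* differed by 1.02, 0.33 and 1.80 at 3.5, 4 and 4.5 h. Among control embryos it had 7209, 3126 and 5113 at 4, 4.5 and 5 h. Its low control value at 4.5 h thus carried part of the mean difference.

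Some of the largest differences belonged to genes that the tables do not name. The deposited gene 'gene13118' had 4881, 10645 and 2347 in high K+ embryos, against 27.0, 28.1 and 43.0 in control embryos, a log2 difference of 7.23 (adjusted p = 7.92e-05). LOC108644823 had 371461, 549860 and 378334 in high K+ embryos, against 17631, 24976 and 21586 in control embryos (log2 difference 4.33, adjusted p = 0.000282). In the other direction, 'gene15553' had 16.6, 32.6 and 18.9 in high K+ embryos, against 1093, 585 and 228 in control embryos (log2 difference -4.54, adjusted p = 0.000261). 'gene11602' had 319, 327 and 311 in high K+ embryos, against 11117, 3244 and 5111 in control embryos (log2 difference -4.15, adjusted p = 0.000765). These 4 genes differed in the same direction in the windows at 0.5 to 1.5 h, 2 to 3 h and 5 to 6 h as well. Each condition was corrected for base composition on its own, and a lasting offset from that cannot be told apart from high K+.

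The remaining lists concern the cell's general machinery. Of 72 mitochondrial ribosomal protein genes 3 were lower and 0 higher. *mrps31*, *mrpl55* and *mrpl40* had log2 differences of -0.99, -0.98 and -0.80, and the list's median of -0.15 lay close to that of all genes. No member was called among 77 cytosolic ribosomal proteins, 83 respiratory chain genes, 38 proteasome genes or 18 glycolysis genes, whose medians were 0.08, -0.08, -0.01 and 0.25. At an unadjusted p under 0.05 these 4 lists had 14, 8, 7 and 8 higher and 6, 12, 6 and 2 lower members. The cytosolic ribosomal proteins changed sign between time points, with medians of 0.14 at 3.5 h, -0.28 at 4 h and 0.30 at 4.5 h. Control values of some members dipped at 4.5 h. At 4, 4.5 and 5 h in control embryos, *rps6* had 2067, 918 and 1827, and *rps23* had 1744, 917 and 1483. Glycolysis genes had 6 higher and 1 lower with the median ratio set to 1. *gpi* had 70.4, 38.6 and 32.1 in high K+ embryos, against 31.7, 25.2 and 22.0 in control embryos, while *aldoa* had 213, 167 and 152 in high K+ embryos, against 286, 268 and 383 in control embryos. Neither was called as deposited.

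Stress, cell cycle and maternal lists held no call either, with these counts at an unadjusted p under 0.05. Heat shock genes had 2 higher and 0 lower of 28, ER stress genes 4 and 2 of 25, and p53 response genes 3 and 2 of 23. Cell cycle genes had 6 higher and 4 lower of 43, germ plasm genes 1 and 0 of 21, and oocyte RNA storage genes 1 and 4 of 25. Ion channels and pumps had 1 higher and 10 lower of 61, and adhesion and matrix genes 3 and 3 of 56. *atp12a*, a proton and potassium pump, had 67.7, 31.9 and 11.8 in high K+ embryos, against 98.5, 55.0 and 61.8 in control embryos (log2 difference -1.20, adjusted p = 0.0544). *scnn1a*, a sodium channel subunit, had 3.349, 2.97 and 5.1 in high K+ embryos, against 3.59, 7.36 and 27.9 in control embryos (log2 difference -1.13, adjusted p = 0.0712). *btg2*, a p53-induced growth brake, had 28.0, 24.2 and 22.8 in high K+ embryos, against 47.6, 50.04 and 52.0 in control embryos, which did not overlap (log2 difference -0.97, adjusted p = 0.0533).

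**Figure D4:**
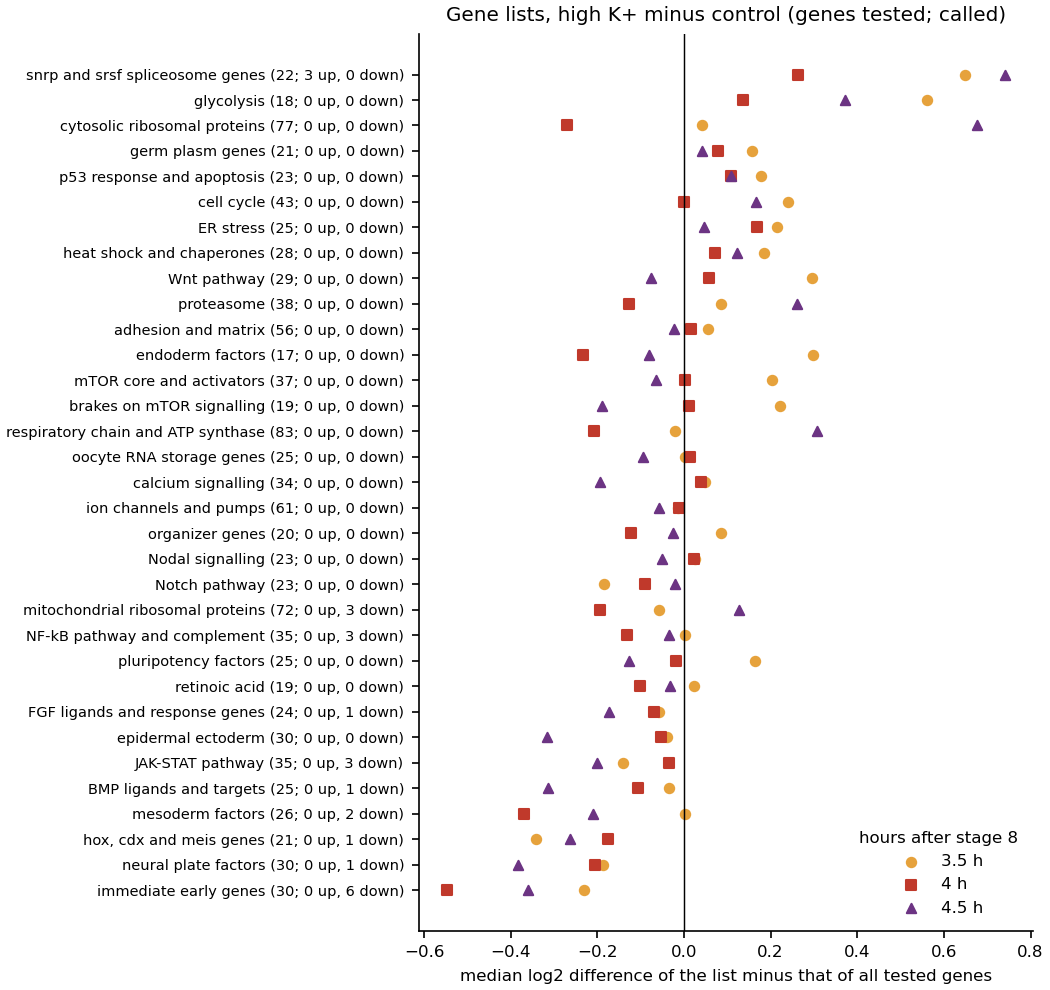
Median log2 difference between high K+ and control embryos of each gene list minus the median of all tested genes, at 3.5 h (circles), 4 h (squares) and 4.5 h (triangles). Brackets give the number of genes tested and called. Immediate early genes (6 lower) lie left of 0 and spliceosomal *snrp* and *srsf* genes (3 higher) right of 0 at all 3 time points.

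The raised and lowered genes had different histories. Of the 87 raised genes, 82 had been higher at 0.5 to 1.5 h and 85 at 2 to 3 h, and 86 were higher at 5 to 6 h, with median log2 differences of 1.06, 1.43 and 0.99. Of the 164 lowered genes, 116 had been lower at 0.5 to 1.5 h and 132 at 2 to 3 h, and 161 were lower at 5 to 6 h, with medians of -0.26, -0.49 and -0.66. Over all tested genes the median was 0.17 at 2 to 3 h and 0.11 at 5 to 6 h. At 0.5, 1 and 1.5 h it was 0, 0.04 and 0.48. That common shift adds to the counts of raised genes and takes from those of lowered genes. The shares of all tested genes higher or lower in those windows are not given here. Some lowered genes, such as *irg1*, *socs3* and *igf2*, lay under 1 in both conditions from 0.5 to 2 h. At such levels the sign and size of a difference say little. The samples of those windows are separate from those at 3.5 to 4.5 h, but they entered the fit behind the calls. Their spread bore on which genes were called, so these counts are not independent of the calls. In the direct test 18 genes (0.12%) had a difference at 3.5 to 4.5 h that was not that at 2 to 3 h. Over all tested genes the median difference also fell, from 0.17 at 2 to 3 h to -0.10 at 3.5 to 4.5 h. With the median ratio set to 1 fewer genes passed, as given below. All 18 were more negative in the later window, and 14 of them were among the called genes. *irg1*, *socs3*, *junb* and *qprt* were among these, with *acod1la*, *phyhdlb*, *phyhdla.1* and *gatd3alb.1* from the stretch of neighbors. For *junb* the log2 difference was 0.09 at 2 to 3 h and -2.16 at 3.5 to 4.5 h, a change of -2.25 (adjusted p = 0.0424). Against 5 to 6 h, 2 genes differed (0.0133%), both without a symbol. Unpaired, 5 and 0 genes differed from those windows, and with control samples 30 min earlier 0 and 0. Unadjusted, 2915 genes differed from 2 to 3 h and 482 from 5 to 6 h.

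**Figure D5:**
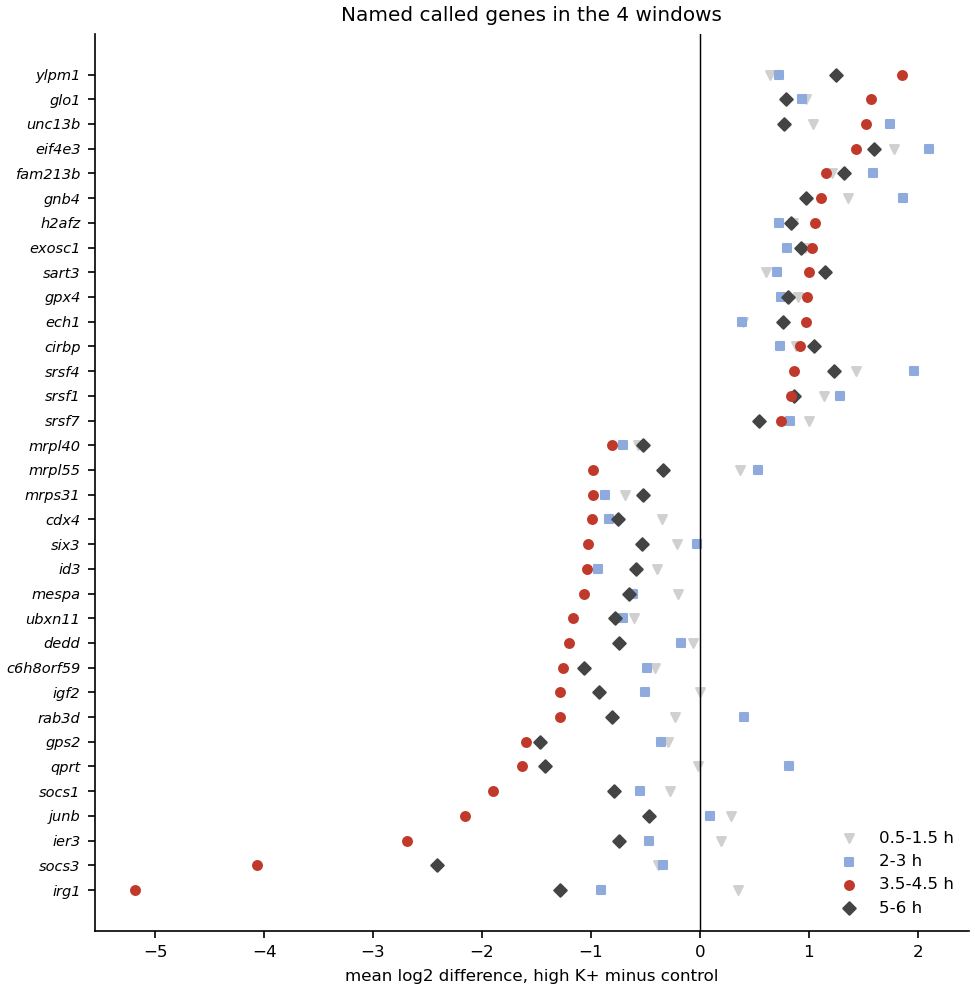
Mean log2 difference between high K+ and control embryos of the named called genes in 4 windows of 3 time points each. The red circles are the 3.5 to 4.5 h window. Raised genes lie to the right of 0 in every window, while *irg1*, *socs3*, *ier3* and *junb* lie farthest to the left at 3.5 to 4.5 h and nearer to 0 at 2 to 3 h.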

How the data were processed

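PolyA RNA of 10 pooled whole embryos per sample was read as stranded paired ends of 100 bp. The authors aligned the reads to Xt9.1 with STAR and estimated isoform TPM with RSEM (versions not given in the sources used here). The deposited signal values are these abundances after the authors corrected them for dinucleotide content and summed them per gene. The correction was a linear model fitted to the spike-in RNAs of each condition separately. The paper reports a loss of AT-rich transcripts that depended on batch and varied between control and high K+ samples. The scaling to spike-in RNAs used RNAs to which the values had already been fitted. Totals of the values differ between samples, and read depth is unknown. The labels and the sequencing methods give 10 mM KCl for high K+, while the general methods give a higher concentration. Stage 8 is 0 h, and the samples were taken at intervals of 30 min.

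Genes above 0.4 in 6 consecutive samples of a condition were kept. Of these, 508 passed in control samples only and 393 in high K+ samples only. On log2(abundance + 1), limma 3.58.1 (R 4.3.3) was fitted over the 24 samples from 0.5 to 6 h, with a condition effect in each of 4 windows of 3 time points, an abundance trend in the prior, and the time point as a block. Fold changes on this scale understate the change of low genes. Two-sided p-values were adjusted by Benjamini-Hochberg over all 15019 genes, at a threshold of 0.05. The pairing comes from the design, since both conditions were sampled at each time from synchronized embryos. Deviations from the group mean correlated between paired samples at 0.33, 0.11 and 0.29 across genes at 3.5, 4 and 4.5 h. With 3 pairs, an exact test of a single value could not go below 0.25. Alternatives were other scalings, filters, pseudocounts, an unpaired fit, the 6 samples alone, 1 time point left out, and control samples 30 min earlier or later.

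Named genes were the 12 most raised and 12 most lowered called genes with a symbol, a mean abundance of at least 5 and the same sign at all 3 time points as deposited and relative to the median gene, up to 4 called members of each list (or the 2 largest differences where none was called, of which a selection is given), and the genes the study stained or depleted. Genes and lists were chosen with earlier results of these data known, and those of JAK-STAT and of NF-kB and complement, and the stretch of neighboring genes, after the values of this comparison were seen. Gene order and names for NCBI gene numbers came from RefSeq (UCB_Xtro_10.0), another build than the reads', so no coordinates are given.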

Additional observations from a re-analysis of the deposited data

Results flagged for a closer look

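For 4 named genes the difference between high K+ and control embryos at 3.5 to 4.5 h was tested to be unlike that at 2 to 3 h. The change between windows on the log2 scale was -4.28 for *irg1* (adjusted p = 0.0146), -3.72 for *socs3* (adjusted p = 0.00987), -2.45 for *qprt* (adjusted p = 0.0399) and -2.25 for *junb* (adjusted p = 0.0424), by limma with Benjamini-Hochberg adjustment. In *qprt* the log2 difference was -1.63 at 3.5 to 4.5 h and 0.81 at 2 to 3 h. *irg1*, *socs3* and *junb* were low in both conditions until 2.5 h, when no value of theirs passed 4. With control samples taken 30 min earlier, 0 genes passed this test.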

How the results depend on the processing

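The median log2 difference over tested genes stayed between -0.18 and 0.03 under all alternatives, within the spread of 0.25 between time points. The counts did not. As deposited, 87 genes were higher and 164 lower. With the median ratio set to 1 they were 689 and 451, with the spike-in scaling 22 and 41, with the 6 samples alone 280 and 412, without a filter 16 and 47, with control samples 30 min earlier 117 and 135 (37 and 58 of them called as deposited), and with those 30 min later 373 and 552. When the replicate block of time points was dropped they were 28 and 83. Of the calls made with the block, 25 of 87 higher and 73 of 164 lower genes were then kept. Leaving out 1 time point gave 12 to 36 higher and 42 to 69 lower. The 18 genes unlike 2 to 3 h became 8 with either scaling, 5 without the block, 10 with a mean of at least 1, 2 without a filter, 0 with control samples 30 min earlier, 11 with those 30 min later, and 6 to 19 with 1 time point left out. The 2 unlike 5 to 6 h became 1 with the median ratio set to 1, a mean of at least 1 or a pseudocount of 0.5, 4 with a pseudocount of 5, 5 without a filter, 0 without the block or with either shift of the control, and 1 to 4 with 1 time point left out. Against control samples 30 min earlier *igf2*, *rab3d* and *six3* turned to 0.66, 0.39 and 0.13. Of 34 named called genes, 34 were still called with the median ratio set to 1, 8 with the spike-in scaling, 16 without the block, 8 without a filter, 12 with control samples 30 min earlier, and 13, 11 and 9 without 3.5, 4 or 4.5 h. The cause of these changes was not tested.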

Other observations

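A second run of neighbors was lowered as well. LOC108648340, LOC100497952 and LOC100498107 follow each other among the tested genes that could be placed in RefSeq order, and other genes may lie between them. The run was picked out by its calls. LOC100498107 had 40.0, 36.4 and 30.6 in high K+ embryos, against 168, 276 and 410.3 in control embryos (log2 difference -2.88, adjusted p = 0.00087). LOC100497952 had 76.3, 73.8 and 37.1 in high K+ embryos, against 255, 415 and 483 in control embryos (log2 difference -2.62, adjusted p = 0.00235). LOC108648340 was lower by a log2 difference of -3.23 (adjusted p = 0.044), and called under 5 of 14 alternatives. In control embryos all 3 genes climbed over the window, and in high K+ embryos all 3 ended it lower than they began it.

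*ptafr*, the receptor of platelet-activating factor, fell outside the naming rule because of its low abundance, and was singled out after its values were seen. It was listed at 0 at 3.5 h and had 0.422 and 0.4 at 4 and 4.5 h in high K+ embryos, against 1.3, 5.47 and 13.0 in control embryos (log2 difference -2.24, adjusted p = 0.00303).

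At 0 h, outside the window and the fit, the high K+ sample listed *irg1* at 3.98 and *igf2* at 2.31, against 0 for both in the control sample. In high K+ embryos neither gene then passed 1 until 3 h for *irg1* and 3.5 h for *igf2*.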
